A study of Caenorhabditis elegans with 12 samples.

Results

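The genes described here encode the protein scaffold that holds homologous chromosomes together in meiosis of the nematode Caenorhabditis elegans. They are him-3, htp-1, htp-2, htp-3 and rec-8 of the chromosome axis, syp-1, syp-2, syp-3 and syp-4 of the synaptonemal complex, and zhp-3, which acts on crossovers along it. Members were chosen by gene name, with earlier results of these data known. They are 10 of the 24238 genes in the deposited table, and all 10 were found and passed the filter on low values. RNA-seq libraries were made from mRNA of whole N2 worms, the laboratory wild type, 12 in all. The 6 controls received dimethyl sulfoxide (DMSO), and the other 6 received tetrathiomolybdate (TM), which binds copper, for 4 days. The labels name no dose, age or sex and do not say whether replicates were separate cultures, so p-values measure the spread between libraries, which may be technical.

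In meiotic prophase each pair of sister chromatids is organised along a proteinaceous axis. The axis rests on cohesin and on proteins with a HORMA domain, a fold that binds short peptides of partner proteins. When homologs have paired, the synaptonemal complex polymerises between their axes like a zipper and holds them together while crossovers form. In C. elegans these steps take place in the hermaphrodite gonad in an ordered row of nuclei between the mitotic zone and the oocytes. In RNA of whole animals, fewer germ cells, less RNA per germ cell and a larger share of RNA from other cells cannot be told apart.

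Levels are FPKM, fragments scaled to transcript length and library depth, given as mean ± SD over 6 libraries. A log2 change is TM over DMSO ± SE from a count model of the 11535 genes averaging 1 FPKM or more. It was tested with edgeR's quasi-likelihood test, and "fell" marks an adjusted p under 0.05. Positions are those of the deposited table, and apart from the end of htp-3 they equal those of the WBcel235 build for all members. The libraries held 61432401 to 67068328 counts, and 1938 to 12363 of these fell on any 1 member in a library. Markers of germline, oocyte, muscle, intestine, neuron and epidermis were present in every library. The 30 pairs of libraries within a group differed by 18.1 to 230.5 in chi-square per degree of freedom, more than counting noise, and each library counted as 1 sample. DMSO replicates 2 and 6 and TM replicate 5 stood apart in several members, and results that rest on them are given with and without them.

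Of the 10 members, 5 fell in TM libraries (him-3, htp-3, rec-8, syp-2 and syp-3) and 0 rose, against 16% of all genes tested that were called lower and 23.7% called higher, 39.8% in all. With no member higher at an unadjusted p under 0.05 either, 6 were lower at that level in edgeR's test, and DESeq2 called 6 lower and 0 higher. Over all genes DESeq2 called 2398 lower and 2779 higher, against 1851 and 2739 with edgeR. The share of all genes at the unadjusted level was not counted. The log2 changes of all 10 lay between -0.31 and -0.01, with a median of -0.18 beside -0.0091 over all genes tested. The count depended on how libraries were scaled: 6 members were called with median-ratio scaling, 2 with total counts only (him-3 and syp-2), 1 with upper-quartile scaling (syp-2) and 0 when general germline markers set the scale (1 at an unadjusted p under 0.05). Of the 11535 genes tested, 2236, 1499, 797 and 631 were called lower in those settings, in that order, against 1851 with TMM scaling. The summed level of the 10 members was 521 to 582 FPKM in DMSO (median 568) and 441 to 526 FPKM in TM (median 508). The highest TM sum lay above those of DMSO replicates 2 and 6 alone, at 523 and 521 FPKM.

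**Figure D1:**
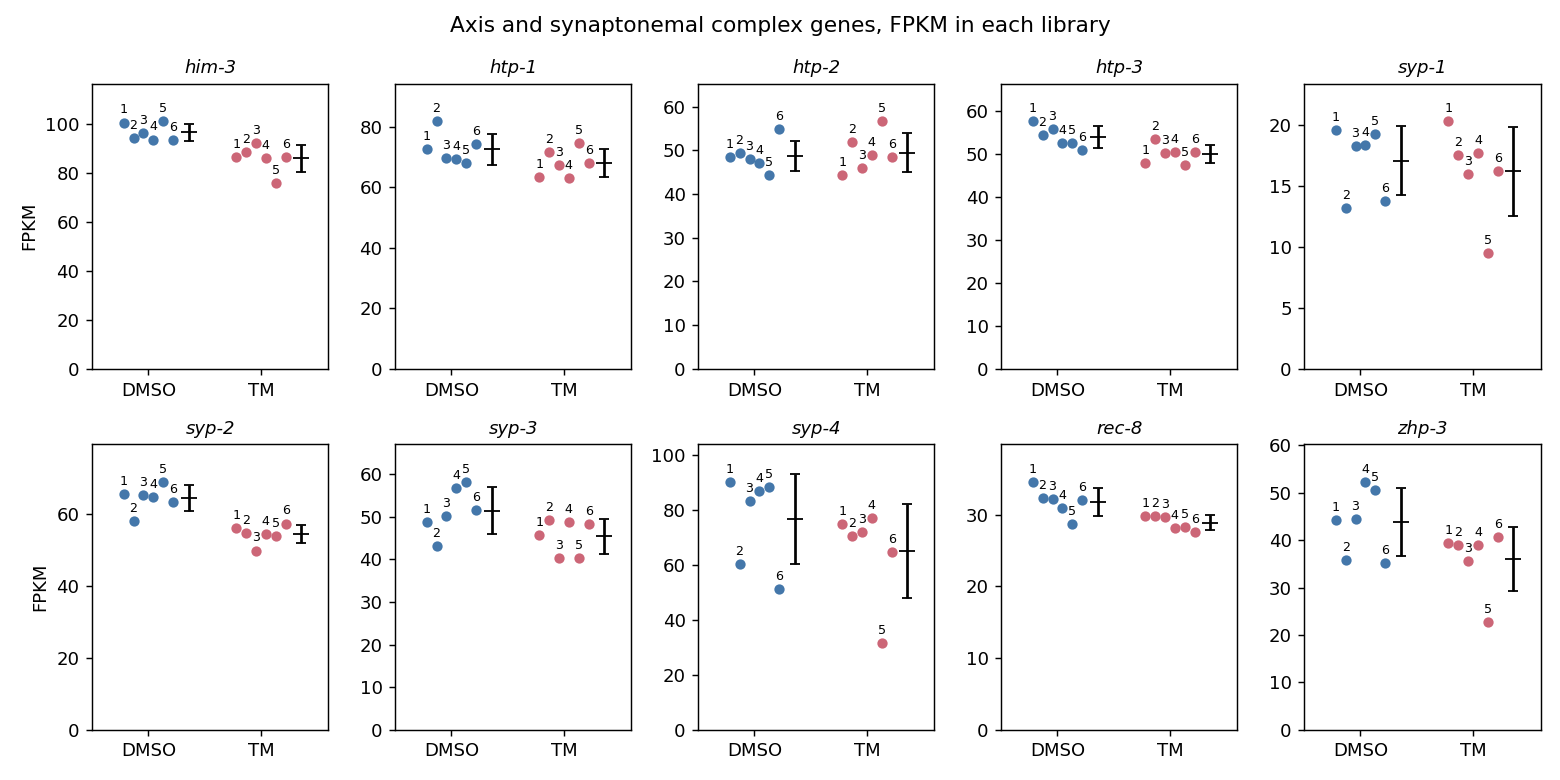
FPKM of each of the 10 genes in the 6 DMSO and 6 TM libraries. Points are libraries with their replicate number, and bars show the mean and SD of 6 libraries. The groups of him-3 and syp-2 do not overlap, and in syp-1, syp-4 and zhp-3 the low points are DMSO replicates 2 and 6 and TM replicate 5.

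The axis is built on HTP-3, the HORMA protein that recruits the other HORMA proteins and is also needed for the DNA breaks that start recombination. Its gene (chromosome I, 4827072 to 4829791, plus strand, 9 exons, 739 residues) had 50.8 to 57.7 FPKM in DMSO, median 53.5, and 47.3 to 53.5 FPKM in TM, median 50.2. The highest TM library lay among the DMSO libraries, so the groups overlapped by a few libraries. The level went from 53.9 ± 2.49 to 49.9 ± 2.19 FPKM, and htp-3 fell by 0.14 ± 0.052 on the log2 scale (adjusted p = 0.0421). This call held without DMSO replicate 4 or 5 or TM replicate 2 or 5 and was lost without any other 1 library, with adjusted p between 0.0233 and 0.0948.

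HIM-3, another HORMA protein, lies along the axis and is needed for pairing and synapsis. Its gene (chromosome IV, 6977508 to 6978765, plus strand, 4 exons, 291 residues) was the most abundant member, at 93.4 to 101 FPKM in DMSO, median 95.2. In TM it had 75.7 to 92.1 FPKM, median 86.4, so every TM library lay below every DMSO library, as in 6.41% of all genes tested for that direction. The level went from 96.5 ± 3.53 to 85.9 ± 5.47 FPKM, and him-3 fell by 0.20 ± 0.051 (log2, adjusted p = 0.00675). The call held without any 1 library but was lost with upper-quartile scaling (log2 change -0.11, adjusted p = 0.104, edgeR), quantile normalization (-0.11, adjusted p = 0.0680, limma) and germline marker scaling (-0.08, adjusted p = 0.396, edgeR).

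HTP-1 and HTP-2 are close paralogs of 352 residues each that share roles in cohesion, and HTP-1 also holds back synapsis until homologs have paired. Reads that match both genes may have been split or assigned in ways the sources used here do not state, so each level is uncertain. The htp-1 gene (chromosome IV, 5390189 to 5391557, minus strand, 4 exons) had 67.9 to 81.9 FPKM in DMSO, median 71.0, and 63.0 to 74.5 FPKM in TM, median 67.6. The htp-2 gene (chromosome IV, 6419522 to 6420898, plus strand, 4 exons) had 44.3 to 54.8 FPKM in DMSO, median 48.3, and 44.4 to 56.8 FPKM in TM, median 48.8. For both genes the groups overlapped widely, and TM replicate 5 was the highest TM library. Neither passed the test: the log2 change of htp-1 was -0.13 ± 0.077 (adjusted p = 0.207, edgeR) and that of htp-2 was -0.01 ± 0.086 (adjusted p = 0.937, edgeR). The log2 change of htp-1 was -0.08 without DMSO replicate 2 and -0.07 without DMSO replicates 2 and 6 and TM replicate 5. The sign of the htp-2 change turned positive with total counts, upper-quartile and germline marker scaling and without several single libraries, from -0.072 without TM replicate 5 to 0.045 without DMSO replicate 6, while that of htp-1 stayed negative in every setting tried. The htp-1 level exceeded that of htp-2 by 1.29 to 1.66 times in each of the 12 libraries.

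REC-8 is the meiotic kleisin, the subunit that closes the cohesin ring on sister chromatids. Its gene (chromosome IV, 13349122 to 13353193, minus strand, 8 exons and 781 residues in the longest coding transcript) had 28.7 to 34.6 FPKM in DMSO, median 32.1, and 27.6 to 29.9 FPKM in TM, median 29.0. All DMSO libraries but replicate 5 lay above all TM libraries. The level went from 31.8 ± 1.95 to 28.9 ± 1.002 FPKM, and rec-8 fell by 0.17 ± 0.063 (log2, adjusted p = 0.0447). The call held without DMSO replicate 4 or 5 or TM replicate 5 and was lost without any other 1 library, with adjusted p between 0.00996 and 0.0975, and without DMSO replicates 2 and 6 and TM replicate 5 together it was lost as well (adjusted p = 0.0667).

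The central region of the synaptonemal complex contains SYP-1, SYP-2, SYP-3 and SYP-4, coiled-coil proteins that depend on one another to assemble. The small protein SYP-2 is encoded on chromosome V (5536487 to 5537717, plus strand, 4 exons, 213 residues). Its gene had 58.1 to 69.0 FPKM in DMSO, median 65.0, and 49.8 to 57.4 FPKM in TM, median 54.6, and the groups did not overlap. The level went from 64.4 ± 3.60 to 54.4 ± 2.55 FPKM, and syp-2 fell by 0.27 ± 0.052 (log2, adjusted p = 0.000888), the smallest p among the members. The call held without any 1 library, and among the other settings it was lost only with germline marker scaling (log2 change -0.15, adjusted p = 0.0956).

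The syp-3 gene (chromosome I, 8663048 to 8664120, minus strand, 5 exons, 224 residues) had 43.2 to 58.3 FPKM in DMSO, median 50.96, and 40.4 to 49.2 FPKM in TM, median 47.0. The groups overlapped, with DMSO replicate 2 lowest among the controls. The level went from 51.5 ± 5.52 to 45.4 ± 4.1 FPKM, and syp-3 fell by 0.21 ± 0.073 (log2, adjusted p = 0.0348). The call was lost without DMSO replicate 3, 4, 5 or 6 or TM replicate 1 or 3, with adjusted p between 0.0157 and 0.0776 over the 12 omissions. Its annotated span shares 58 bases with the gene mrt-1 on the opposite strand, which had a mean of 28.7 FPKM. The libraries kept strand by their dUTP protocol, but whether the counting used it is not stated.

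The syp-4 gene (chromosome I, 6847511 to 6849923, plus strand, 8 exons, 605 residues) varied most between libraries, with a coefficient of variation of 21.6% in DMSO and 26.1% in TM. It had 51.4 to 90.3 FPKM in DMSO, median 84.99, and 31.5 to 77.1 FPKM in TM, median 71.2. The low ends were DMSO replicates 6 and 2, at 51.4 and 60.4 FPKM, and TM replicate 5. The log2 change was -0.26 ± 0.18 and did not pass (adjusted p = 0.263, edgeR). It was -0.13 without TM replicate 5 alone (adjusted p = 0.389, edgeR), and it did not pass without any 1 library. Without those 3 libraries, a setting chosen with their position known, the DMSO level was 87.1 ± 3.03 FPKM (n = 4) and the TM level 71.8 ± 4.71 FPKM (n = 5). The groups then did not overlap, as in 18.5% of all genes tested for that direction. The log2 change was -0.28 ± 0.048 (adjusted p = 4.92e-05 from edgeR's model), in a setting that called 24.6% of all genes lower.

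The syp-1 gene (chromosome V, 16404274 to 16407701, plus strand, 6 exons, 489 residues) was the scarcest member per length. It had 13.2 to 19.5 FPKM in DMSO, median 18.3, and 9.47 to 20.3 FPKM in TM, median 16.9, and the highest of all 12 libraries was TM replicate 1. The log2 change was -0.10 ± 0.14 (adjusted p = 0.580, edgeR). It rested on single libraries: it was -0.00074 without TM replicate 5, -0.16 without DMSO replicate 2 and -0.17 without TM replicate 1. Without the 3 libraries it was -0.10 ± 0.059 (adjusted p = 0.149 from edgeR's model). Its sign turned positive only with germline marker scaling, at 0.02. The span of syp-1 shares 987 bases with F13A7.14 on the same strand, a gene with a mean of 50.7 FPKM, so how reads were divided between these genes makes the level of syp-1 uncertain.

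ZHP-3 is a RING finger protein related to yeast Zip3 that lies along the synaptonemal complex and then gathers at crossover sites. Its gene (chromosome I, 8529376 to 8531342, minus strand, 8 exons, 389 residues) had 35.3 to 52.4 FPKM in DMSO, median 44.4, and 22.7 to 40.7 FPKM in TM, median 39.0. The low DMSO libraries were again replicates 6 and 2, at 35.3 and 35.9 FPKM, and TM replicate 5 stood alone at 22.7 FPKM. The log2 change of -0.31 ± 0.12 was the largest of the 10 but did not pass (adjusted p = 0.0573, edgeR). It passed without DMSO replicate 2 (adjusted p = 0.0440 by edgeR), DMSO replicate 6 (0.0364) or TM replicate 5 (0.0403, log2 change -0.22). Without all 3 the level went from 47.9 ± 4.16 FPKM (n = 4) to 38.7 ± 1.93 FPKM (n = 5), and edgeR's model gave a log2 change of -0.31 ± 0.055 with adjusted p = 7.40e-05. That setting was chosen with the low position of these libraries known, so the smaller SE and p follow from the choice. It called 24.6% of all genes lower.

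**Figure D2:**
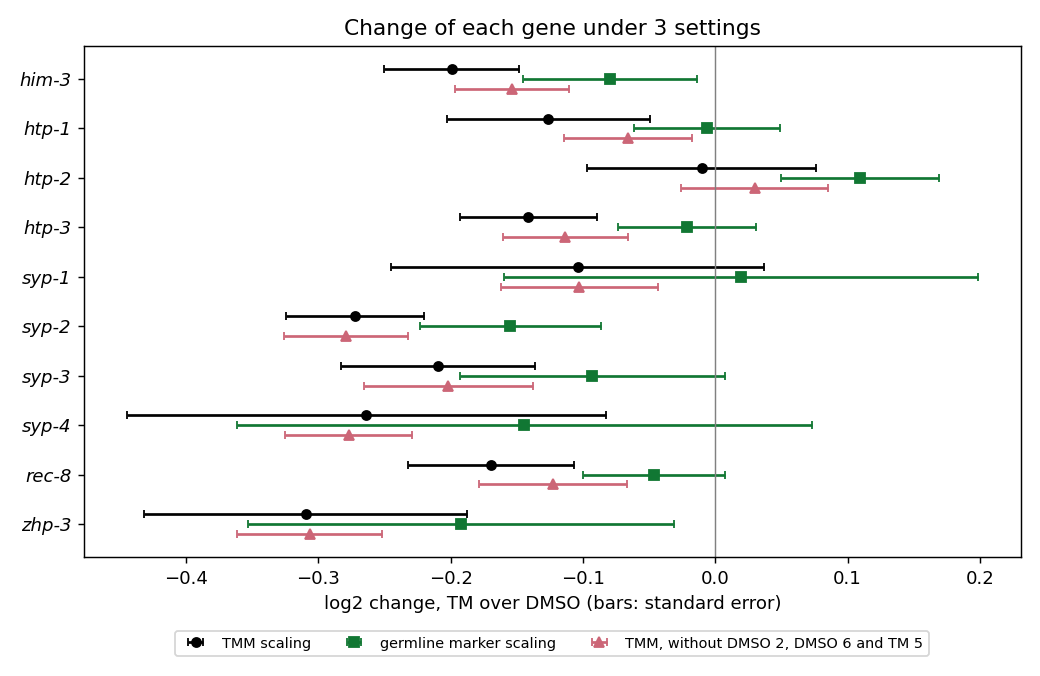
Log2 change of each gene, TM over DMSO, with bars of 1 standard error, under TMM scaling of all 12 libraries, under scaling to general germline markers, and under TMM without DMSO replicates 2 and 6 and TM replicate 5. Points move to the right with germline marker scaling, and the bars of syp-1, syp-4 and zhp-3 shorten without the 3 libraries, which were chosen with their low position in these genes known.

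In order of level per length, him-3 stood first in both groups, above the next gene in every library. In DMSO it was followed by syp-4, htp-1, syp-2, htp-3, syp-3, htp-2, zhp-3, rec-8 and syp-1. In that order the ranges of neighbours overlapped from syp-4 to htp-1, from htp-1 to syp-2, and from htp-3 through syp-3 and htp-2 to zhp-3. Each of these genes stood above its next neighbour in only 3 to 5 of the 6 DMSO libraries, and their differences were not tested. In TM the order was the same but for the neighbours syp-4 and htp-1, and syp-3 and htp-2, which changed places. The order was rec-8 and then syp-1 at the end in both groups, without overlap. Against all genes tested, the members were well expressed in DMSO, with him-3 above 88.4% of them and syp-1 above 52.0%.

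Whether members changed unequally was asked with ratios inside a library, which no scaling can move. For each of the 45 pairs of members, the log2 ratio of counts was compared between groups by a two-sided exact permutation test, whose smallest possible p is 0.00216. With 45 pairs, a single ratio at that smallest p would have an adjusted p of 0.0974, so no ratio could pass on its own and the adjusted values do not show that members changed alike. After adjustment 0 passed, and 4 had an unadjusted p under 0.05. The smallest was that of htp-2 to syp-2, whose log2 ratio was -0.22 ± 0.16 in DMSO and 0.04 ± 0.14 in TM (exact p = 0.0173, adjusted p = 0.487, n = 6 per group). The ratio of the paralogs htp-1 to htp-2 was 0.57 ± 0.097 in DMSO and 0.45 ± 0.071 in TM (log2 of counts, exact p = 0.0411, adjusted p = 0.506).

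Within a group, the members split by library. In TM replicate 5 the log2 level (CPM, counts scaled to library depth) lay below the TM mean by 0.93 for syp-4, 0.68 for syp-1 and 0.58 for zhp-3, as log2 differences, and above it by 0.20 for htp-1 and 0.26 for htp-2. In DMSO replicate 6 the same differences from the DMSO mean were -0.47 for syp-4, -0.21 for syp-1 and -0.22 for zhp-3, beside 0.12 for htp-1 and 0.25 for htp-2. In DMSO replicate 2 they were -0.27, -0.30 and -0.23 for the first 3 genes and 0.22 and 0.07 for the paralogs. The genes syp-4, syp-1 and zhp-3 were thus low, and htp-1 and htp-2 above their group mean, in all 3 libraries. In syp-2 the library farthest from its group mean was TM replicate 3, at -0.11.

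**Figure D3:**
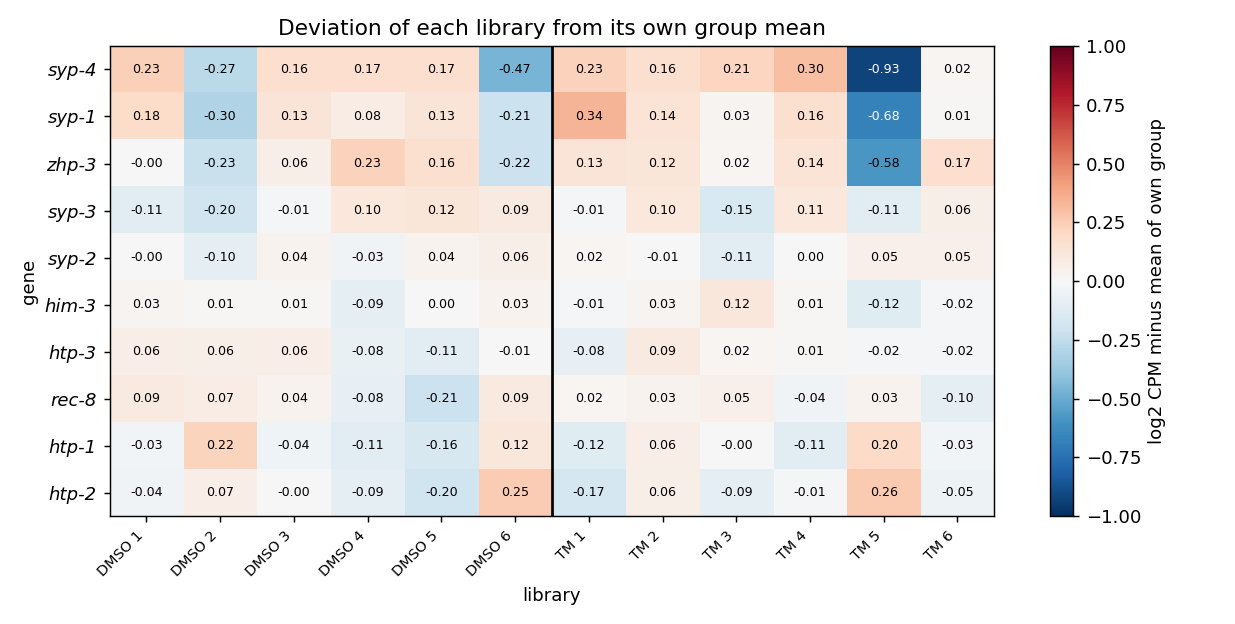
Log2 CPM of each gene (rows) in each library (columns) minus the mean of that library's own group, with the value printed in each cell. Blue cells for syp-4, syp-1 and zhp-3 mark DMSO replicates 2 and 6 and TM replicate 5, and red cells for htp-1 and htp-2 stand in the same libraries.

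TM replicate 5 was the lowest TM library for 6 of the 10 members, beside 42.6% of all genes tested, and for 58 of 86 other meiosis genes. DMSO replicate 6 was the lowest control for 4 members, beside 29.4% of all genes, and for 49 of the 86. DMSO replicate 2 was the lowest control for 3 members, beside 11.7% of all genes, and for only 6 of the 86. The summed level of general germline markers was 5164 FPKM in TM replicate 5 and 4441 to 4813 FPKM in the other TM libraries. That sum is weighted to car-1, cgh-1 and gld-1, with DMSO means of 1256, 1236 and 575 FPKM, so it does not show each marker. The slope of log2 level on exon length was -0.264 in TM replicate 5 and -0.0943 in DMSO replicate 6, against -0.0598 to 0.0176 in the other TM libraries. In the remaining DMSO libraries it was 0.0356 to 0.176, lowest in replicate 2. Removing that trend left syp-4 at -0.71, zhp-3 at -0.54 and syp-1 at -0.36 from the TM mean in TM replicate 5. It moved htp-3 to 0.24 and rec-8 to 0.30, so the genes still split. With that trend removed, 4 members were called: zhp-3 passed (adjusted p = 0.0382, edgeR) and htp-3 and rec-8 did not (adjusted p = 0.179 and 0.1996). That setting called 2380 of all genes lower, against 1851 in the main fit.

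Other meiosis genes were grouped in 6 lists by their known roles. The lists were chosen with earlier results of these data known, so their counts describe these genes and do not test them against all genes. Of 86 genes, all tested, 34 were called lower and 0 higher, with a median log2 change of -0.21, beside the 16% and 23.7% of all genes, and 0 were higher at an unadjusted p under 0.05. The number called lower was 65 without DMSO replicates 2 and 6 and TM replicate 5, 14 with upper-quartile scaling and 8 with germline marker scaling. In the last setting 2 were higher at an unadjusted p under 0.05 and 0 at an adjusted one. Of all 11535 genes tested, 2832, 797 and 631 were called lower in those settings, in that order, against 1851 in the main fit. The 3 libraries were left out with their low position in several members known. TM replicate 5 and DMSO replicate 6 were also the lowest of their groups in 58 and 49 of these 86 genes, so the 65 is no separate support for the 34. For these genes, levels are mean FPKM ± SD, and log2 changes and adjusted p come from the same edgeR model.

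Among other cohesin genes 3 of 12 fell and 0 rose. The cohesin release factor gene wapl-1 averaged 67.6 ± 4.20 FPKM in controls against 53.2 ± 5.98 after TM (log2 change -0.38 ± 0.067, adjusted p = 0.000478). The mitotic kleisin gene scc-1 (log2 change -0.20, adjusted p = 0.0124) and lab-1, which guards cohesion on the long arms of bivalents (log2 change -0.27, adjusted p = 0.0104), fell as well. The meiotic kleisin genes coh-3 and coh-4, partners of REC-8 in function, had log2 changes of -0.22 ± 0.094 and -0.13 ± 0.059 and did not pass (adjusted p = 0.0780 and 0.0993).

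Of 11 other genes of the synaptonemal complex and its assembly 2 fell and 0 rose. The gene gras-1, which restrains synapsis, averaged 115 ± 3.74 FPKM in controls against 92.7 ± 3.76 after TM (log2 change -0.34 ± 0.045, adjusted p = 4.26e-05), and hal-2, which keeps SYP proteins from loading in the wrong place, fell by 0.26 on the log2 scale (adjusted p = 0.0153). The further central region genes syp-5 and syp-6 had log2 changes of -0.32 ± 0.16 and -0.30 ± 0.18 and did not pass (adjusted p = 0.119 and 0.207). The genes coh-3, coh-4, syp-5 and syp-6 were named after their values had been seen.

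Of 11 pairing and checkpoint genes 4 fell and 0 rose. The F-box gene prom-1 averaged 57.2 ± 5.201 FPKM in controls against 41.6 ± 5.17 after TM (log2 change -0.49 ± 0.077, adjusted p = 0.000188). The nuclear envelope gene sun-1, whose product links chromosomes to the cytoskeleton, averaged 82.5 ± 4.097 FPKM in controls against 70.01 ± 3.41 after TM (log2 change -0.27 ± 0.047, adjusted p = 0.000451). The pairing centre gene zim-1 (adjusted p = 0.0344) and the polo kinase gene plk-2 (adjusted p = 0.0441) were called too, but zim-1 lost its call without any of 6 libraries and plk-2 without any of 10.

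Among 21 genes of DNA break formation and strand exchange 10 fell and 0 rose. Those with the smallest p were dsb-2 (58.1 ± 2.33 FPKM in controls against 48.7 ± 2.47 after TM, log2 change -0.28 ± 0.055, adjusted p = 0.000895) and dsb-1, both needed for breaks, the recombinase gene rad-51 and com-1, which acts in end resection. The log2 changes of dsb-1, rad-51 and com-1 were -0.25, -0.26 and -0.28 (adjusted p = 0.00324, 0.00254 and 0.00272).

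Of 18 crossover genes 7 fell and 0 rose. The crossover marker gene cosa-1 averaged 32.2 ± 1.57 FPKM in controls against 25.2 ± 1.79 after TM (log2 change -0.38 ± 0.067, adjusted p = 0.000408). The gene zhp-2, a relative of zhp-3, averaged 60.8 ± 1.96 FPKM in controls against 48.9 ± 5.11 after TM (log2 change -0.34 ± 0.079, adjusted p = 0.00359). The nuclease gene slx-1 (log2 change -0.20, adjusted p = 0.0180) and the topoisomerase gene top-3 (log2 change -0.20, adjusted p = 0.0332) fell too, and top-3 lost its call without DMSO replicate 1 or 3 or TM replicate 1 or 6.

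Of 13 genes of the meiotic spindle and of cohesion release 8 fell and 0 rose. The Aurora B kinase gene air-2 averaged 74.6 ± 3.23 FPKM in controls against 61.2 ± 2.62 after TM (log2 change -0.32 ± 0.056, adjusted p = 0.000454). Its partner gene icp-1 fell by 0.33 ± 0.071 (log2, adjusted p = 0.00192). The genes csc-1, of the same complex, and mei-1, a katanin subunit, fell by 0.30 and 0.19 (log2, adjusted p = 0.0196 and 0.0204), csc-1 not without TM replicate 4.

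**Figure D4:**
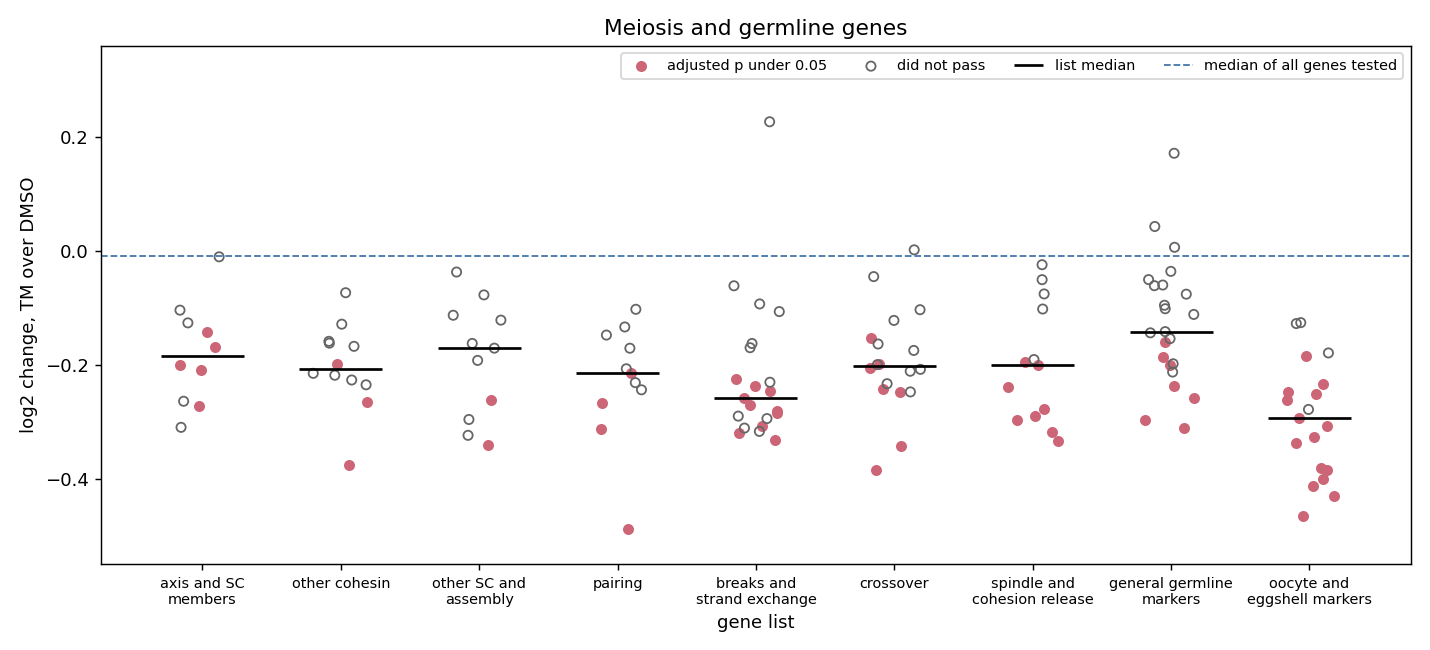
Log2 change, TM over DMSO, of each tested gene of the members, of 6 lists of other meiosis genes and of general germline and oocyte markers. Filled points passed an adjusted p of 0.05, open points did not, black lines are list medians and the dashed line is the median of all genes tested at -0.0091. List medians lie from -0.29 for oocyte markers to -0.14 for general germline markers.

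Markers of other cells moved beside the members. Of all genes tested, 16% were called lower and 23.7% higher, and the marker lists, too, were chosen with earlier results of these data known. General germline markers fell in 7 of 23 and rose in 0, with a median log2 change of -0.14, and their summed level was 4684 to 5258 FPKM in DMSO and 4441 to 5164 FPKM in TM. Of these markers, glh-1 went the other way and just missed the threshold (log2 change 0.17 ± 0.065, adjusted p = 0.05002, edgeR). Oocyte and eggshell markers fell in 15 of 19, with a median of -0.29 and sums of 13645 to 15188 FPKM in DMSO and 11382 to 13578 FPKM in TM. The 19 sperm markers had sums of 13.7 to 41.8 FPKM in DMSO and 121 to 185 FPKM in TM. Of these, 13 passed the filter on low values and were called higher, but spe-11, ssp-16 and msd-2 had under 1 FPKM in DMSO and passed only through TM, so that count is partly set by the filter. Body wall muscle markers rose in 10 of 10, with sums of 1674 to 2091 FPKM in DMSO and 2511 to 3199 FPKM in TM. Epidermis and cuticle markers rose in 7 of 10, of which bli-1 passed the filter only through TM, with sums of 442 to 632 FPKM in DMSO and 1169 to 1448 FPKM in TM. All 7 were collagen genes of the cuticle, and col-19 alone averaged 410 FPKM in DMSO and 817 FPKM in TM. The regulator genes nhr-23, elt-1 and elt-3 of this list did not pass (log2 changes -0.096, -0.13 and 0.22). Intestine markers rose in 4 of 8 and neuron markers rose in 3 and fell in 1 of 9 tested of 10. Of 12 early zygotic genes 3 were tested and 2 fell, and the sums of all 12 were 14.4 to 16.4 FPKM in DMSO and 8.10 to 11.97 FPKM in TM. In DMSO, 3 sperm and 2 zygotic genes were at 0 in at least 1 library, and the part of any of these cells in the members' levels was not tested.

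With counts scaled to the general germline markers, the members' log2 changes ran from -0.19 for zhp-3 to 0.11 for htp-2, and that scaling moved the median of all genes tested to 0.11. The adjusted p was 0.0956 for syp-2, 0.396 for him-3 and 0.180 for htp-2 (edgeR's quasi-likelihood test). In that setting, among the meiosis genes named above, gras-1, wapl-1, prom-1, cosa-1, zhp-2, air-2 and icp-1 still passed.

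The mean profile of the 10 members over the 12 libraries was most like those of spas-1, ubc-25, ppk-1, ska-3 and pde-12. These are the 5 nearest of 6591 genes outside the lists, with root mean square differences of 0.0256 to 0.0419 in centred log2 CPM. Their log2 changes ranged from -0.23 for ubc-25 to -0.19 for ppk-1, a closeness to the members that the choice by profile over both groups fixes.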

How the data were processed

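Poly(A) RNA was measured in 12 libraries, grouped by the treatment in the labels (6 DMSO, 6 TM). Per the file headers, the authors deposited raw read counts and FPKM values per gene. According to the submitters' processing notes, cutadapt 1.9, FastQC, HISAT2 2.2.1 and StringTie were used. No source used here names the counting tool, its use of strand or the genome build. RefSeq's WBcel235 annotation held 24232 of the identifiers, with 97.0% of starts and 95.9% of ends equal; positions are the table's, and exons and residues come from Ensembl's WBcel235 annotation.

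Counts of the 11535 genes averaging 1 FPKM or more (12703 lay below) were fitted with treatment as the only term in edgeR 4.0.16 under R 4.3.3. TMM scaling, robust dispersions, a two-sided quasi-likelihood F test and Benjamini-Hochberg adjustment over all tested genes were used, with a threshold of 0.05. The SE is the log2 change over the square root of F. Alternatives used limma 3.58.1, DESeq2 1.42.0, other scalings and filters, and fewer libraries. The code was tested on simulated data.

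The members and lists were chosen with earlier results of these data known. Named genes were the members, up to 4 called genes of smallest p per meiosis list, and the 5 genes of most similar profile. No protein or promoter sequences were used here.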

Additional observations from a re-analysis of the deposited data

Results flagged for a closer look

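In 3 of 20 sets of 6 libraries, 1 library lay far from the others by Dixon's test at 95%, which flags about 1 set in 20 by chance. All 3 were low values of TM replicate 5. They were 75.7 FPKM of him-3, with 86.2 to 92.1 FPKM in the other TM libraries, 31.5 FPKM of syp-4, with 64.7 to 77.1 FPKM in the others, and 22.7 FPKM of zhp-3, with 35.5 to 40.7 FPKM in the others. TM replicate 5 was low by this test in 16.6% of all genes tested, and the next highest share of any TM library was 0.173%, in replicate 3. Its length slope of -0.264 was the steepest of the 12 libraries, and with that trend removed syp-4 and zhp-3 still lay at -0.71 and -0.54 from the TM mean (log2 CPM).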

How the results depend on the processing

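Over 25 other settings the log2 changes of 8 members stayed negative; those of htp-2 and syp-1 did not. That of htp-2 was 0.026 with total counts only, 0.083 with upper-quartile scaling, 0.11 with germline marker scaling, 0.052 with a mean of at least 5 FPKM, 0.0195 and 0.0198 with limma at pseudocounts of 1 and 0.1, 0.061 after quantile normalization and 0.03 without DMSO replicates 2 and 6 and TM replicate 5. It ran from -0.072 (without TM replicate 5) to 0.045 (without DMSO replicate 6) when 1 library was left out. That of syp-1 was 0.0195 with germline marker scaling. The number of members called lower was 2 with total counts only, with at least 5 FPKM and with limma at either pseudocount, 1 with upper-quartile scaling and after quantile normalization, 0 with germline marker scaling, and 2 to 6 with 1 library left out. Without DMSO replicates 2 and 6 and TM replicate 5 together, 6 were called lower. Among them were him-3, htp-3 and syp-3 (adjusted p = 0.0046, 0.0461 and 0.011 from edgeR's model). In each of these settings 0 members were higher, also at an unadjusted p under 0.05. Other meiosis genes called lower numbered 34 with all libraries and TMM, 23 to 39 with 1 library left out, 14 with upper-quartile scaling, 8 with germline marker scaling, 18 with at least 5 FPKM and 65 without the 3 libraries. That last setting was chosen with the low position of these libraries known. Of all genes, 797 were lower with upper-quartile scaling, 631 with germline marker scaling, 2945 after quantile normalization and 2832 without the 3 libraries, against 1851, and 1517 to 2394 with 1 library left out; at 5 FPKM 2649 passed, 1019 lower and 1630 higher, with fewer genes tested. Called higher were 3199, 3582 and 1933 in the first 3 of those settings, against 2739. With total counts only 1499 of all genes were lower, and with limma at pseudocounts of 1 and 0.1 1579 and 1583 were. The cause of these shifts was not tested. The deviations of same-numbered libraries from their group means had correlations of -0.336 to 0.227, over 0.1 in 2 of 6 pairs. These correlations cannot show whether such libraries shared a culture or batch. With a replicate block 2 members and 23 other meiosis genes were lower, beside 1305 of all genes lower and 3633 called in all. Members held at least 1938 counts in every library, and counting error was small beside the spread between libraries.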
